A study of Mus musculus with 27 samples.

Results

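The genes described here are 48 regulators and effectors of the mitotic cell cycle outside the E2f family, among 22367 protein-coding genes of the GENCODE vM1 annotation. They were chosen as a list of gene names, and each gene was then given the H3K4-methylated regions that touch its body or lie within 5 kb of one of its transcription start sites (TSS). The list was divided by the step at which the products act: 20 genes of the G1/S transition, 12 of S phase and its checkpoints, and 16 of mitosis. To ask where H3K4 methylation falls when *Kmt2d* is lost from heart muscle, the study compared E11.5 (embryonic day) mouse hearts by chromatin immunoprecipitation and sequencing (ChIP-Seq). The mutant genotype was *Tnnt2::Cre;Kmt2d fl/fl*, that of the controls, titled WT, was *Tnnt2::Cre;Kmt2d fl/+*, so the controls also carried Cre and 1 floxed allele. Both carried the mTmG/+ reporter on a C57BL/6 background. Each genotype was sampled as 3 pools of 30 hearts, and each pool was split into an input and immunoprecipitates for H3K4me1, H3K4me2 and H3K4me3, which makes 24 heart libraries. Because the *Tnnt2* promoter drives Cre in heart muscle, *Kmt2d* stays intact in endocardium and other heart cells, so a mark that falls in fewer cells and one that falls less in each cell cannot be told apart.

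Cyclins are regulatory subunits that rise and fall through the cycle and switch on the cyclin-dependent kinases (CDKs). D-type and E-type cyclins with their kinases phosphorylate the retinoblastoma (pocket) proteins, which releases E2F transcription factors to switch on genes of DNA replication. Cyclin B with CDK1 then starts mitosis, and the spindle checkpoint delays chromosome separation until every chromosome is attached. Heart muscle cells of the embryo still divide, whereas those of the adult largely do not. H3K4me1 lies mainly at enhancers, H3K4me2 at enhancers and promoters and H3K4me3 at promoters. KMT2D is one of the enzymes that methylate this lysine.

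3 region lists were analysed. The merged list held 358833 regions with a peak in any of the 3 marks, the H3K4me1-decreased list held 2730 of them and the H3K4me2-decreased list held 6699. The length of the deposited H3K4me2-decreased list differs from that in the published text, and every call below refers to the deposited list. A region in a decreased list is called here, meaning that the authors listed the mark there as lower in mutants than in controls. Whether every region of the deposited H3K4me2-decreased list passed the published false discovery rate threshold of the authors cannot be told from it. The lists give positions only, pooled over replicates, so neither the size of a decrease nor its replicate error can be given, read depth is unknown, and absence from a list does not show that a mark was equal. The lists also do not say which of the marks made a merged region. Heart muscle markers carried wide regions over a TSS, 16540 bp at *Tnnt2*, 13920 bp at *Myh7* and 22900 bp at *Nkx2-5*, and the endocardial markers *Pecam1*, *Cdh5* and *Tek* had regions of 3880, 10240 and 5760 bp. *Alb*, which marks liver, had none at a TSS. *Kmt2d* itself, annotated under its older symbol *Mll2*, had 11 merged regions and none in either decreased list, and these lists do not test its deletion.

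Nearly all of the cell cycle genes were H3K4-methylated at a TSS. H3K4me2 was called lower there at 20 of them, a count near the share of other genes with regions of like width. A merged region covered a TSS of 47 of the 48 genes (97.9%), against 70.4% of all coding genes. The widest TSS region of each of these 47 genes was 5160 bp wide at the median, with quartiles of 4010 and 7690 bp, against 3720 bp (2400 and 5840 bp) in all coding genes with one, and 19 of the 47 were above the upper quartile of coding genes. A TSS of 20 of the 47 genes (42.6%) lay in an H3K4me2-decreased region, against a background of 29.2% of coding genes with a TSS region (4603 of 15752). Wide regions were called more often throughout the genome, and the share among other coding genes of like width was 37.2%, which would give 17.5 of 47 genes. The share at like width thus lay between the background and that of the members. The count of 20 was near the 17.5 genes at that share, so no excess at like width is read from it. No member had a region in the H3K4me1-decreased list.

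**Figure D1:**
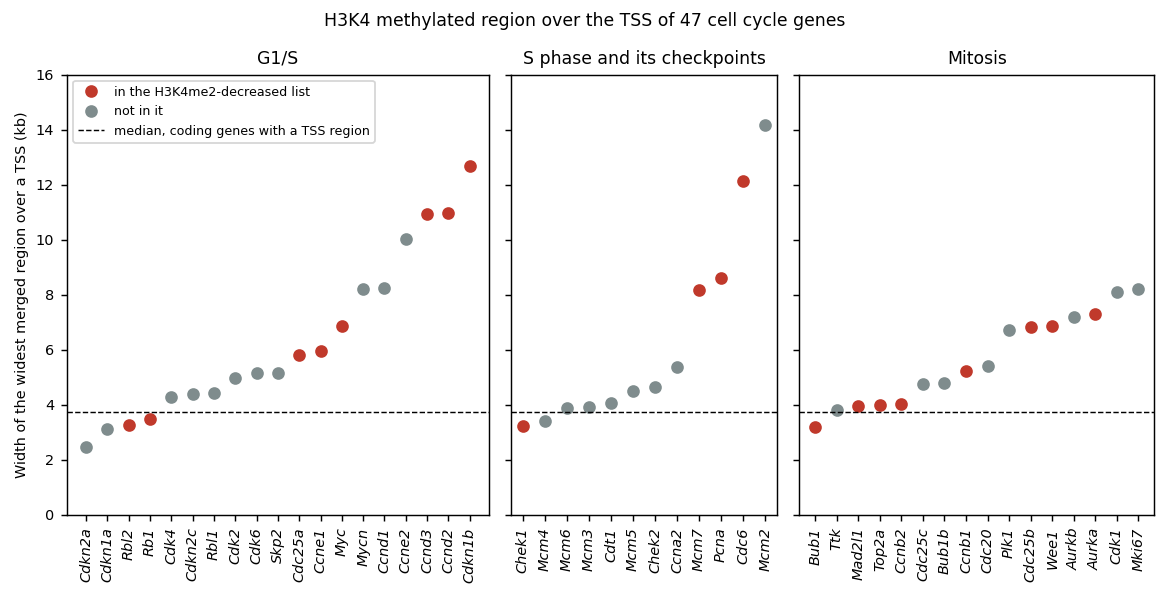
Width of the widest merged H3K4-methylated region over a TSS (kb, vertical axis) for the 47 members that had one, ordered by width within G1/S, S phase and mitosis. Red points are members with a TSS in the H3K4me2-decreased list, grey points are the others, and the dashed line is the median of coding genes, 3720 bp. 7 members lay below that line, and red points occurred from 3180 bp to 12660 bp.

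The widest regions were those of *Mcm2* (14180 bp), *Cdkn1b* (12660 bp), *Cdc6* (12120 bp), *Ccnd2* (10980 bp) and *Ccnd3* (10920 bp), of which all but that of *Mcm2* were called. The narrowest were those of *Cdkn2a* (2480 bp), *Cdkn1a* (3120 bp), *Bub1* (3180 bp), *Chek1* (3220 bp) and *Rbl2* (3280 bp), and the last 3 were called. Called members had a median TSS region of 6380 bp and the other members 4800 bp. Between 2 and 4 kb, 6 of 12 members were called (50%), against 27.1% of other coding genes. Between 4 and 6 kb, 4 of 17 were called (23.5%, others 34.8%), between 6 and 8 kb 4 of 6 (66.7%, others 40%), and from 8 kb upwards 6 of 12 (50%, others 46.5%). The members thus lay above the other genes in 3 of these 4 classes and below in 1, with few genes in each. Their share of calls did not rise steadily with width, as that of other genes did.

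**Figure D2:**
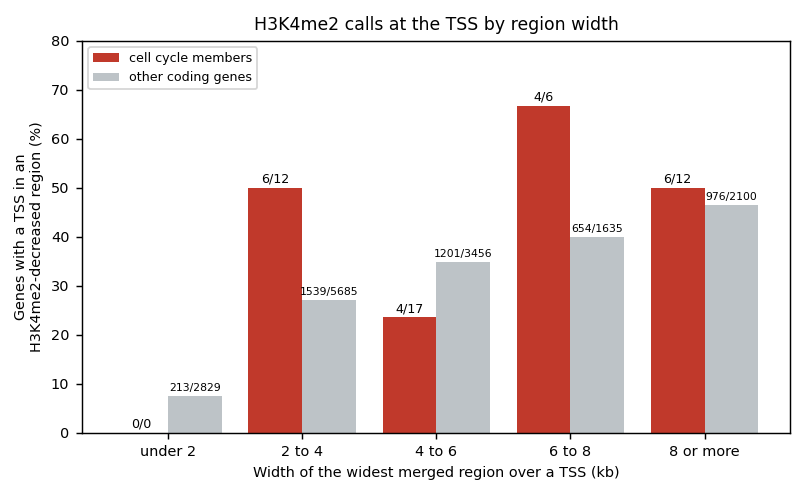
Share of genes with a TSS in an H3K4me2-decreased region (%, vertical axis) by the width of the widest merged region over a TSS (kb, horizontal axis), for the cell cycle members (red) and other coding genes (grey). The numbers above the bars are genes called and genes in the class. Other coding genes rose from 7.53% under 2 kb to 46.5% at 8 kb or more, whereas members were at 50%, 23.5%, 66.7% and 50% in the 4 classes that held any.

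In the G1/S group, 8 of 19 genes with a TSS region were called (42.1%), against 37.4% of other coding genes of like width. That share would give 7.1 genes, so the count was near it. Among the D-type cyclins, which couple growth signals to CDK4 and CDK6, the regions of 2 of 3 genes were called. The *Ccnd2* region covered chr6:127095186-127106165 (mm9 throughout), from 5099 bp upstream to 5880 bp downstream of the TSS, and reached into an annotated lincRNA whose TSS it also held. The *Ccnd3* region at chr17:47727966-47738885 held a downstream TSS of the gene, whereas the region over its 5′-most TSS (chr17:47640726-47645625, 4900 bp) was not called. *Ccnd1*, at 8260 bp, was not called, so within this family a wide region did not always carry a call. Of the E-type cyclins, which act with CDK2 at the entry into S phase, *Ccne1* was called (chr7:38888786-38894725, 5940 bp) and *Ccne2*, with the wider region of 10020 bp, was not.

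None of the 4 cyclin-dependent kinase genes, *Cdk1*, *Cdk2*, *Cdk4* and *Cdk6*, was called at a TSS. Their TSS regions spanned 4300 to 8080 bp, within the widths of the 8 cyclin genes (4040 to 10980 bp), of which 5 were called. At the share of other coding genes of like width, 1.46 of the 4 kinase genes and 3.26 of the 8 cyclin genes would be called, so both counts are too small to set the families apart. The *Cdk2* region (chr10:128138946-128143925, 4980 bp) also held the TSS of *Pmel*. *Cdk6* had the most regions of any member, 46 with a summed width of 45840 bp, and none of them was in either decreased list.

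Of the 5 CDK inhibitor genes *Cdkn1b*, which encodes p27, was called, against 29.2% of all coding genes with a TSS region. This and the other families named here hold too few genes for their counts to be set apart from that share. It had a pair of merged regions, and both were in the H3K4me2-decreased list: one of 12660 bp over the whole gene (chr6:134869106-134881765) and one of 3320 bp whose near edge lay 2114 bp upstream of the TSS (chr6:134864986-134868305). *Cdkn2d*, which encodes p19INK4d, was the member with no TSS region, and its 3 regions of 960, 440 and 60 bp lay at least 1588 bp from the TSS. *Cdkn1a*, which encodes p21, had a single region of 3120 bp over 1 of its 3 TSS positions (chr17:29229866-29232985), not the 5′-most. *Cdkn2a*, which encodes p16INK4a and p19ARF, had the narrowest TSS region (chr4:88939446-88941925, 2480 bp). These narrow and missing regions sat beside the widest called region of the whole list, that of *Cdkn1b*, within a single family.

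Among the pocket protein genes, *Rb1* and *Rbl2* were called and *Rbl1* was not, with TSS regions of 3280 to 4440 bp. *Rb1* had a called region over its 5′ TSS (chr14:73723946-73727425, 3480 bp) and another inside the gene (chr14:73637246-73640365, 3120 bp). The latter held both a TSS of *Rb1* and that of *Lpar6*, a receptor gene that lies within it, so the call there cannot be assigned to 1 gene. *Rbl2* was called at chr8:93592806-93596085 (3280 bp). *Cdc25a*, a phosphatase that activates CDK2, was called at chr9:109777426-109783245 (5820 bp). *Myc*, a transcription factor that promotes growth and division, was called at chr15:61814706-61821565 (6860 bp), and its relative *Mycn*, with 8220 bp, was not. *Skp2*, part of the ubiquitin ligase that removes p27, was not called, and its region (chr15:9066366-9071525, 5160 bp) also held the TSS of *Lmbrd2*.

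Since E2F factors bind many promoters of this group, promoter sequences were searched for 3 motifs on both strands. They were the E2F site in its forms TTTCCCGC, TTTCGCGC, TTTGCCGC and TTTGGCGC, the cell cycle genes homology region (CHR, TTTGAA) and the CCAAT box bound by NF-Y. The RefSeq windows, from 250 bases upstream to 50 bases downstream of a start site, covered 38 of the 48 genes. The 250 upstream bases of *Cdc25a* (called, chr9:109777833-109778082, plus strand) and *Cdk2* (not called, chr10:128142108-128142357, minus strand) are shown as a pair from the G1/S group that holds the same motifs. The sequence was found unchanged in the mm9 assembly, and capitals mark the matches in either orientation.
Cdc25a: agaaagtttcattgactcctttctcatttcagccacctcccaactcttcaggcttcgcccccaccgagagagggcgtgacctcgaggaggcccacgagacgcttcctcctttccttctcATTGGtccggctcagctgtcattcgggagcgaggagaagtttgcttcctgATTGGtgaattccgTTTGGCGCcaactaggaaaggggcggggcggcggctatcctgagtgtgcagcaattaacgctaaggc
Cdk2: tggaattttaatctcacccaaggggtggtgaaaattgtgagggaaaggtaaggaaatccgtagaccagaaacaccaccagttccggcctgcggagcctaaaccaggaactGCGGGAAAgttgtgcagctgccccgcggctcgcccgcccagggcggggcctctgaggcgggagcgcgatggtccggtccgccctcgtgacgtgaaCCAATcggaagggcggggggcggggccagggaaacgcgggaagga
Each holds an E2F site and at least 1 CCAAT box, with a call at *Cdc25a* and none at *Cdk2*.

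The S phase group had 4 of 12 genes called at a TSS (33.3%), against 37% of other coding genes of like width, which would give 4.44 genes, so the count was at that share. Of its 6 genes for the MCM helicase, which unwinds DNA at replication forks and whose subunits work as a ring, 1 was called. That count is too small to be set apart from the 29.2% of all coding genes with a TSS region. *Mcm7* was called at chr5:138607086-138615245 (8160 bp), a region that also held the TSS of *Ap4m1*. *Mcm2* had the widest region of all members (chr6:88844366-88858545, 14180 bp), shared with *Tpra1* and reaching 9771 bp upstream of the *Mcm2* TSS, and was not called. *Mcm4*, at chr16:15635506-15638905 (3400 bp), shared its region with *Prkdc* and was not called. The other MCM genes, *Mcm3*, *Mcm5* and *Mcm6*, had regions of 3920, 4500 and 3880 bp, each without a second coding gene and none called.

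Of the licensing factors that load the helicase at origins, *Cdc6* was called (chr11:98761626-98773745, 12120 bp), in a region that reached 7489 bp upstream and into *Wipf2*, and *Cdt1*, with 4080 bp, was not. *Pcna*, the sliding clamp of the replicative polymerases, was called at chr2:132072126-132080745 (8620 bp), a region that covered the gene and the TSS of *5730494N06Rik*. Of the checkpoint kinase genes, which halt the cycle after DNA damage, *Chek1* was called in a narrow region at chr9:36532126-36535345 (3220 bp). *Chek2* was not called at its own TSS, but the neighbouring region at chr5:111263546-111265785 (2240 bp) over the TSS of *Hscb* was. The TSS region of *Chek2* itself (chr5:111266446-111271105, 4660 bp) is counted among those shared with *Hscb*, which has starts in both. The 4 called TSS regions of the group had a median of 8390 bp and the others 4290 bp, although *Chek1* had the narrowest region of the group and was called and *Mcm2* the widest and was not.

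Regions shared with a second coding gene were frequent in this group, at 5 of 12 genes (41.7%), against 21.9% of coding genes, and 10 of 47 members in all (21.3%). When shared regions were left out, 16 of the 39 members that kept a TSS region were called, against a background of 25.9% (3330 of 12867 genes). No share at like width was computed for this setting.

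The upstream bases of *Mcm6* (not called, chr1:130256283-130256532, minus strand) and of the downstream start site of *Mcm7* (called, chr5:138612495-138612744, minus strand) are shown as examples from the helicase.
Mcm6: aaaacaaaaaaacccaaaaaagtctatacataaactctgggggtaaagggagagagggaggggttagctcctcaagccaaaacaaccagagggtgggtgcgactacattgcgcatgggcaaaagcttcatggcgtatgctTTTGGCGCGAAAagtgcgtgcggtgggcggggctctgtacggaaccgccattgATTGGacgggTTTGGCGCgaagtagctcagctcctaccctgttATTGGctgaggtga
Mcm7: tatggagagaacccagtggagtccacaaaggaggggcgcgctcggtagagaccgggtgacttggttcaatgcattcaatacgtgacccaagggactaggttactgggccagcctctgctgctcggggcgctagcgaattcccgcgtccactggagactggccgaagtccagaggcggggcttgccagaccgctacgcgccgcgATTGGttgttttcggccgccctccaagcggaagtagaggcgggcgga
*Mcm6* has 3 E2F matches, 2 of which overlap as TTTGGCGCGAAA, while this *Mcm7* sequence has a CCAAT box and no match of the E2F forms. The window of the upstream *Mcm7* start site, in the same called region, does hold an E2F match, so the pair shows no difference in E2F sites between the genes.

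In the mitosis group, 8 of 16 genes were called at a TSS (50%), against 37.2% of other coding genes of like width. That share would give 5.94 genes, and the group is too small for its count to be set apart from it. Both B-type cyclins, the partners of CDK1, were called: *Ccnb1* at chr13:101552106-101557345 (5240 bp) and *Ccnb2* at chr9:70265866-70269905 (4040 bp). *Cdc25b*, a phosphatase that activates CDK1, was called at chr2:131010846-131017665 (6820 bp) in a region that also held the TSS of *Spef1*. *Wee1*, the kinase that holds CDK1 inactive, was called at chr7:117263206-117270065 (6860 bp). Calls thus fell on both an activator and an inhibitor of CDK1, while *Cdc25c*, another activator, was not called.

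Among the mitotic kinases *Aurka*, which acts at centrosomes, was called at chr2:172192106-172199405 (7300 bp), a region shared with *Cstf1*. *Plk1* was not called (6720 bp). Of the 4 spindle checkpoint genes, *Bub1* (chr2:127655506-127658685, 3180 bp) and *Mad2l1* (chr6:66484686-66488645, 3960 bp) were called, and *Bub1b* and *Ttk* were not. *Top2a*, the topoisomerase that untangles chromosomes, was called at chr11:98882446-98886425 (3980 bp). *Cdc20*, which activates the anaphase-promoting complex, was not called. Unlike in the other groups, the called mitosis genes had narrower TSS regions (median 4640 bp) than those not called (6070 bp).

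3 more mitosis genes were called only away from a TSS, which brought the group to 11 of 16 (68.8%), against 33.6% of other coding genes of like summed region width. *Mki67*, the proliferation marker Ki-67, had a called region of 4720 bp at chr7:142911046-142915765, outside the gene and 2984 bp from its TSS, while its TSS region of 8220 bp was not called. *Aurkb*, the kinase of the chromosomal passenger complex, had one of 6620 bp at chr11:68848986-68855605, outside the gene and 3544 bp from the nearest TSS, which overlapped *1500010J02Rik*. *Cdk1* had one of only 60 bp at chr10:68802146-68802205, inside the gene in no annotated exon and 3272 bp from the nearest TSS. Counting any region, 24 of 48 members were called (50%), against a background of 25.7% of coding genes and 34.5% at like summed width. The G1/S and S groups had 8 of 20 (40%) and 5 of 12 (41.7%). With a 1 kb window the count over all members was 21, against 24.2% of coding genes. That window does not reach the called regions of *Mki67* and *Aurkb*, and a minimum region width of 500 bp would drop that of *Cdk1*. The mitosis count of 11 thus depends on these settings and was not recomputed under them.

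The mitosis promoters shown are those of *Top2a* (called, chr11:98885504-98885753, minus strand), *Ccnb2* (called, chr9:70269362-70269611, minus strand) and *Mki67* (TSS not called, chr7:142908063-142908312, minus strand), because all 3 carry both a CHR and CCAAT boxes.
Top2a: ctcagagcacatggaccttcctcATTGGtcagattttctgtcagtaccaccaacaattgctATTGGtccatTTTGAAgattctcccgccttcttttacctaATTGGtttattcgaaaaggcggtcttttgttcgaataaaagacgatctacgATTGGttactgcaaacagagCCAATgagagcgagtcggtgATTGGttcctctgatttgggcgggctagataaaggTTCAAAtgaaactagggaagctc
Ccnb2: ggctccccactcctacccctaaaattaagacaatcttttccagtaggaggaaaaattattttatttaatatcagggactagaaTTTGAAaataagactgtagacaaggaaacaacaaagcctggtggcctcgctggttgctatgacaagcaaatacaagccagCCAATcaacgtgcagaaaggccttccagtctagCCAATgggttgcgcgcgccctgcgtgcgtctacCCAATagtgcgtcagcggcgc
Mki67: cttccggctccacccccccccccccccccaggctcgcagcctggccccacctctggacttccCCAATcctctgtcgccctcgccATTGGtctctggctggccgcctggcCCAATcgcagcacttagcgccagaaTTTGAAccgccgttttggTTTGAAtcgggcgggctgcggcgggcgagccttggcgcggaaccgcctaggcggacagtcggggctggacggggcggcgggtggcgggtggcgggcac
CCAAT boxes recur in all 3, at 6 places in *Top2a*.

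Over the 300-base windows, the E2F site was found in 7 of 10 S phase genes (70%), 5 of 15 G1/S genes (33.3%) and 1 of 13 mitosis genes (7.69%, *Cdk1*), against 2.6% of the 27025 genes with a window. The CHR was found in 9 of 13 mitosis genes (69.2%), 3 of 15 G1/S genes (20%) and 1 of 10 S phase genes (10%), against 20.2% of all genes. The CCAAT box was found in 12 of 13 mitosis genes (92.3%), 7 of 10 S phase genes (70%) and 8 of 15 G1/S genes (53.3%), against 41.1%. E2F matches were therefore commonest in S phase genes and the CHR in mitosis genes, the phases these motifs are known for. Of members with a window, the E2F site was found in 3 of 16 with a called TSS (18.8%) and 10 of 22 without (45.5%). The CHR was found in 4 (25%) and 9 (40.9%) and the CCAAT box in 11 (68.8%) and 16 (72.7%). The phase groups differed both in these motifs and in their share of calls, and the split was not made within them.

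**Figure D3:**
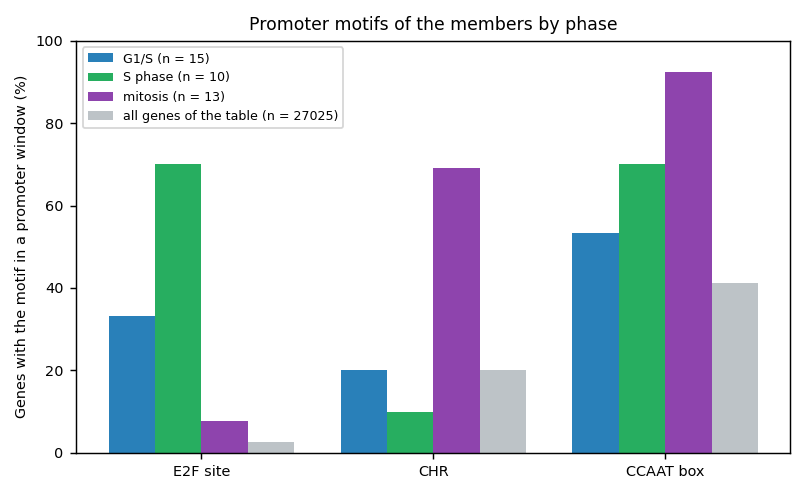
Share of genes (%, vertical axis) whose promoter window holds an E2F site, a CHR or a CCAAT box on either strand, for members of the G1/S, S phase and mitosis groups and for all genes with a window (grey); n is the number of genes with a window. The E2F site is highest in S phase genes (70%) and the CHR in mitosis genes (69.2%).

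TSS regions reached further downstream than upstream of the most upstream TSS they held in 40 of 47 members (85.1%), against 75.2% of other coding genes. The median extents were 1595 bp upstream and 3694 bp downstream, against 1157 and 2209 bp. All 16 mitosis genes showed this direction, with medians of 1236 and 3980 bp, compared with 15 of 19 G1/S genes and 9 of 12 S phase genes. The greater width of the members' regions thus lay mostly on the transcribed side. In 3 members the region covered the whole gene (6.38%, others 6.48%).

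**Figure D4:**
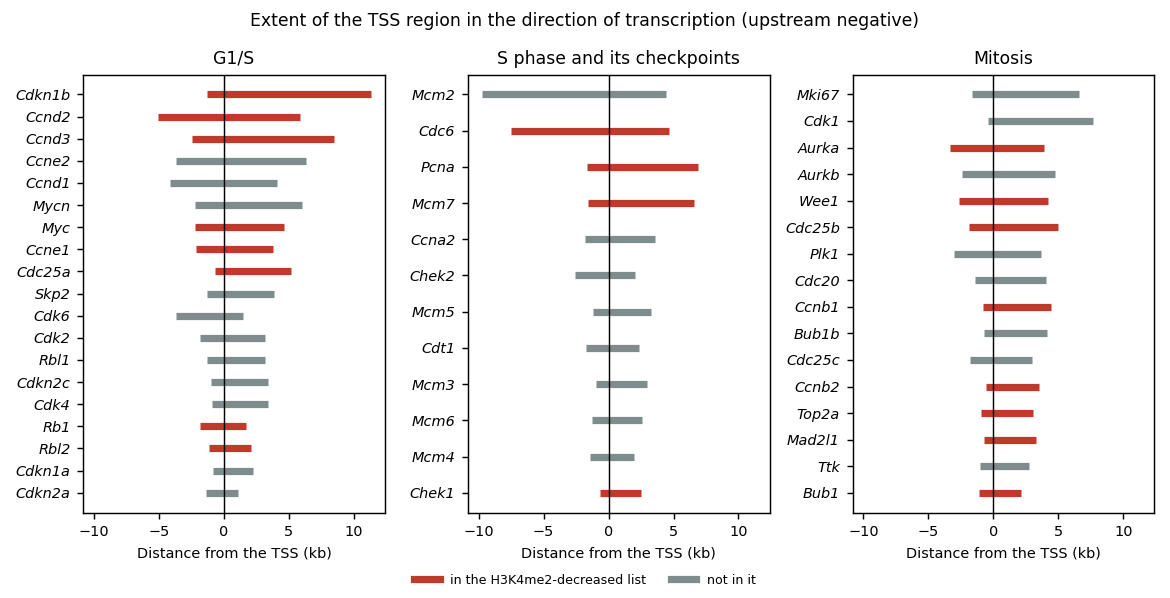
Extent of the TSS region of each member (kb from the most upstream TSS inside it, horizontal axis, upstream negative), by phase and ordered by width. Red bars are in the H3K4me2-decreased list and grey bars are not. All 16 mitosis genes extend further downstream than upstream, while *Mcm2* reaches 9771 bp and *Cdc6* 7489 bp upstream.

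GC content differed between the groups. The median TSS region had 52.3% GC in G1/S genes, 47.8% in S phase genes and 46.8% in mitosis genes, against 50.5% in other coding genes, and the observed over expected ratio of CpG was 0.555, 0.442 and 0.408, against 0.459. Among other coding genes, called TSS regions had less GC than the rest (48.4% against 51.7%). The same order held in members (47.8% against 48.8%), and the part of GC content in the calls was not tested.

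Away from the TSS, calls were rare. The 48 genes had 319 merged regions in all, 53 with a TSS of the member and 266 without. Of the 53, 21 (39.6%) were in the H3K4me2-decreased list, against 22.5% of the TSS regions of other coding genes (3982 of 17699). Of the 266, 5 were (1.88%). The TSS regions of other genes were narrower, with a median of 3220 bp, so this was no comparison at like width. By gene and at like width the shares were 42.6% in members and 37.2% in other genes. Of the 256 that held no TSS of any coding gene, 4 were called (1.56%), against 0.693% of such regions of other genes. The 4 include the 60 bp region of *Cdk1* and the upstream region of *Cdkn1b*. That count is too small to be set apart from the share of other genes, and widths were not matched. The merged regions away from a TSS were narrow, with a median of 430 bp against 4900 bp over a TSS. *Rb1* had 35 regions and *Ccnd3* 21, with calls in 2 and 1 of them.

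H3K4me1 was not called lower in any of these regions. The TSS count of 0 of 47 allows a share of up to 6.38%, and stood against a background of 1.29% (203 of 15752 genes) and 1.73% at like width, or 0.814 genes. The count over any region, 0 of 48, allows up to 6.25%, and stood against 6.34% of coding genes and 6.91% at like summed width, or 3.32 genes. Each such limit is 3 counts over the number counted, an approximate 1-sided 95% bound that covers counting error only. The limit of 6.25% is close to 6.34% and 6.91%, so no depletion is read from that count of 0. Over regions, 0 of 319 allows a share of up to 0.94%. Among other genes the share was 1.18% of regions over a TSS and 0.912% of those that held no coding TSS. Of the 319, 266 held no TSS of the member. This limit treats regions as independent although many share a gene, 46 of them *Cdk6*, so it is likely too tight.

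A further 81 genes of replication, the checkpoints and chromosome segregation were counted in the same way. All 81 had a TSS region (median 4380 bp) and 38 were called for H3K4me2 at a TSS (46.9%), against 29.2% of coding genes and 33% at like width, or 26.7 genes. *Gins2*, *Rpa1* and *Mad1l1* had H3K4me1-decreased regions, 3 of 81 genes (3.7%) against 6.34% of coding genes, a share within the limit of 6.25% that the members' count of 0 allows. In the E2f family, 5 of 8 genes were called at a TSS (62.5%), against 29.2% of coding genes and 40.9% at like width, or 3.27 genes, and *E2f2* also had 1 H3K4me1-decreased region.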

How the data were processed

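H3K4me1, H3K4me2 and H3K4me3 ChIP-Seq libraries of E11.5 control and mutant hearts were made and processed by the authors, who called peaks, merged them over marks and replicates and deposited lists of regions. Each list deposited by the authors holds a chromosome, start and end per region on mm9, with no count, score or *P* value. The submitters' processing notes name CASAVA 1.8.2, FastQC, Bowtie2, Bowtie and SAMtools. The paper places its ChIP-Seq pipeline in a supplement that was not used here, and the peak caller and the test behind the decreased lists are not given in the sources used here. 3 KMT2D ChIP-Exo libraries were not used. Some marker genes of other tissues were checked and are not reported here.

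Genes and TSS positions came from GENCODE vM1 on NCBIM37. That the lists use this assembly was checked by the share of coding TSS inside merged regions, 66.3%, against 16.3% after a 1 Mb shift. A member was called when a merged region over any of its TSS, or in its body or within 5 kb of a TSS, was identical to a region of a decreased list. Every decreased region was identical to a merged region. The like-width share is the share called among other coding genes in the same of 10 classes of equal gene number by TSS region width (or by summed width, for any region), averaged over the members. The procedure was tested on simulated data. No test was made, because the lists hold no replicate values. The RefSeq windows were of build GRCm38.p6, and those of all 38 genes that had one were found unchanged on NCBIM37, whose coordinates are given.

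The members and lists were chosen with earlier results of these data known. Members are described with coordinates if they have a decreased region, no TSS region, 1 of the 5 widest or narrowest TSS regions or a TSS region shared with another coding gene, and others were named after their values were seen. Alternatives covered the annotation, region widths, shared regions, window sizes and width classes. Computations used Python 3.11.15 with numpy 2.4.6.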

Additional observations from a re-analysis of the deposited data

How the results depend on the processing

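The 7 counts and shares were recomputed under alternatives, which gave 44 values, and 41 kept within 1.5 times the count or within the counting interval of the share. The number of members called at a TSS for H3K4me2 ranged from 16 to 20. It was 16 of 39 without regions shared with another coding gene, against 25.9% of coding genes, and 20 of 47 in the main setting, against 29.2%. With the 5′-most TSS only it was 19 of 46, against 28.7%, an alternative chosen after seeing the data that drops *Ccnd3*. The number with any H3K4me2-decreased region ranged from 19 to 26 of the 48 members. The 19 came without shared regions, against 18.6% of coding genes, and the 26 with a 10 kb window, against 28.4%. No alternative gave an H3K4me1 call. For the H3K4me1 counts, every alternative but the 10 kb window could only remove regions or TSS positions. Their 0 was therefore fixed in advance, and it enters the 41 values above without showing stability. The H3K4me2 share of other genes at like width was 30.7% when genes were classed by summed width, against 37.2%. The H3K4me1 share was 1.04% with summed width and 1.31% with protein-coding transcripts only, against 1.73%. The cause of these moves was not tested. No paired analysis was possible because the lists are pooled over replicates, and for the same reason no replicate could be left out. Depth is unknown, so a region outside a list may be one with too few reads to be called.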
